A study of Sus scrofa with 12 samples.

Results

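The subunits of the oxidative phosphorylation complexes were followed in longissimus dorsi, the long back muscle, of Meishan pigs. Members were the probe sets whose single gene symbol begins with NDUFA, NDUFB, NDUFC, NDUFS, NDUFV, SDH, UQCR, COX4 to COX8 or ATP5, or is CYC1. This gave 64 genes with 82 probe sets, out of 6765 symbols that were the only symbol of a probe set. Where a gene had several, the probe set with the highest mean over the 12 arrays was used. Most of these arrays came from after birth, so this choice by level was not wholly independent of the stages. Complex I had 32 members, complex II 4, complex III 2, complex IV 7 and complex V 13. NDUFA4, named as a complex I subunit and now placed with complex IV, was kept apart, as were 4 assembly factors whose symbols fit the rule (NDUFAF1, NDUFAF2, NDUFAF3 and SDHAF2) and ATP5S, a coupling factor that is no subunit. Of complex III, UQCR10 and UQCRB were measured, and CYC1 and the other subunits of that complex were not analysed here.

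Oxidative phosphorylation makes ATP in the inner mitochondrial membrane. Complex I takes electrons from NADH and complex II takes them from succinate, both pass them through coenzyme Q to complex III, and cytochrome c carries them on to complex IV, which reduces oxygen. Complexes I, III and IV pump protons, and complex V, the ATP synthase, uses the return of those protons to make ATP. Skeletal muscle is one of the tissues with the largest demand for this pathway, and several complex IV subunits exist in a heart and muscle form and in a form found in most tissues.

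The samples were 3 arrays at each of 4 stages: fetuses at 65 days post coitus (dpc) and pigs at 3, 60 and 120 days after birth. All were Meishan, kept under ordinary commercial feeding, with no treatment, and each array held the total RNA of 1 sample, labelled as a biological replicate. Littermate fetuses counted as 1 individual, so a fetal sample may pool animals. The labels used here give no sex and no hybridization date, and a stage is a set of different animals. Values are probe set intensities on a linear scale, and no intensity is compared between genes, because probe sets differ in how brightly they report.

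Array medians lay between 49.1 and 52.6, and arrays of 1 stage correlated at 0.905 to 0.985 over all probe sets tested. The summed intensity of 7 skeletal muscle markers of 10 listed was 25260 to 36420 on the fetal arrays and 44480 to 49240 on the 3-day arrays, 45240 to 49390 on the 60-day arrays and 49680 to 50010 on the 120-day arrays. No value in the whole table was 0. In bulk muscle, fewer cells of a type and less RNA per cell cannot be told apart. The number of arrays limits the precision of every value below.

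Within a stage the members tended to lie above or below their means together, array by array. Below the stage mean were 56 of 64 members on replicate 3 at 3 days, 57 and 61 on replicates 1 and 2 at 120 days, and 3 on replicate 3 at 120 days, with median deviations of -0.17, -0.13, -0.11 and 0.24 on the log2 scale. The medians lay farthest from 0 on a pair of other arrays. Fetal replicate 2 had 57 of 64 members below the stage mean, with a median deviation of -0.46, and replicate 1 at 60 days had 56 of 64 below, with a median of -0.60. Over all probe sets tested, 47.1% and 47.3% lay below the mean on those 2 arrays. Members low on one tended to be low on the other, with a Pearson correlation of 0.909 across the 64 members as a description (0.646 across all 16166 probe sets). On replicate 1 at 60 days the lowest members were COX7A2, NDUFB7 and NDUFA3, at -1.28, -1.24 and -1.23, while SDHA, SDHD, NDUFA5, NDUFS1, ATP5A1, ATP5B, ATP5J and NDUFAF1 were above the mean. The 56 ribosomal protein genes had a median deviation of -0.54 on that array and of -0.10 on fetal replicate 2. The ratio of the 3′ to the 5′ actin control probe set was 6.18 on replicate 1 at 60 days, against 5.27 and 3.85 on the others of that stage, and 2.39 on fetal replicate 2, against 2.64 and 2.32. The ratio was 4.69, 3.56 and 2.58 on the 3-day arrays and 5.1, 5.96 and 4.17 on the 120-day arrays. Apart from replicate 3 at 3 days, every array after birth had a higher ratio than every fetal array. The part of RNA quality in these deviations and in the stage comparisons below was not tested.

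**Figure D1:**
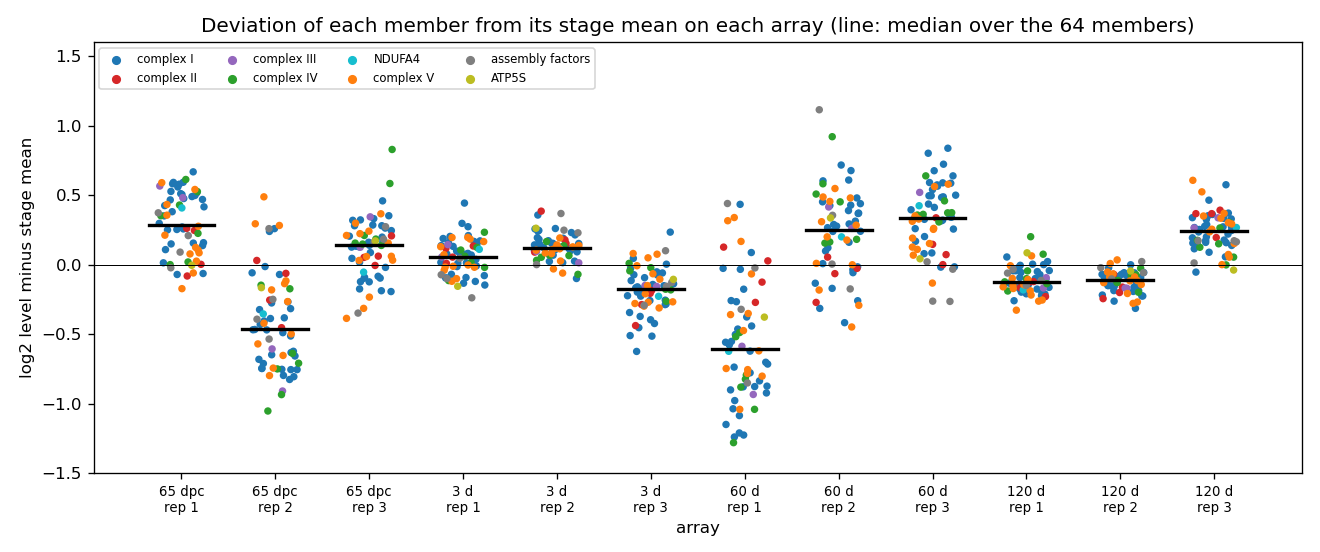
Each point is 1 of the 64 members on 1 array, as its log2 level minus the mean of its stage, coloured by complex, and black lines are medians over the members. The medians of fetal replicate 2 (-0.46) and of replicate 1 at 60 days (-0.60) lie lowest.

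The members rose together between the fetus and the first days after birth. At 3 days, 58 of 64 were higher than at 65 dpc and 0 were lower (limma, adjusted p under 0.05 over all 16166 probe sets), where 20.3% of all probe sets tested were called higher and 22.6% lower. The median change of the members was 1.55 on the log2(intensity + 21) scale, against -0.0005 over all probe sets, and 53 of the 58 rose by at least 2-fold. For 60 of 64 members all 3 arrays at 3 days lay above all 3 fetal arrays, against 26.7% of all probe sets. The 6 members not called were NDUFS5, COX6A1, ATP5E, ATP5G2, ATP5J and NDUFAF2. Changes on this scale understate the change of dim probe sets. Without fetal replicate 2 the median was 1.31 and 53 members were called higher.

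**Figure D2:**
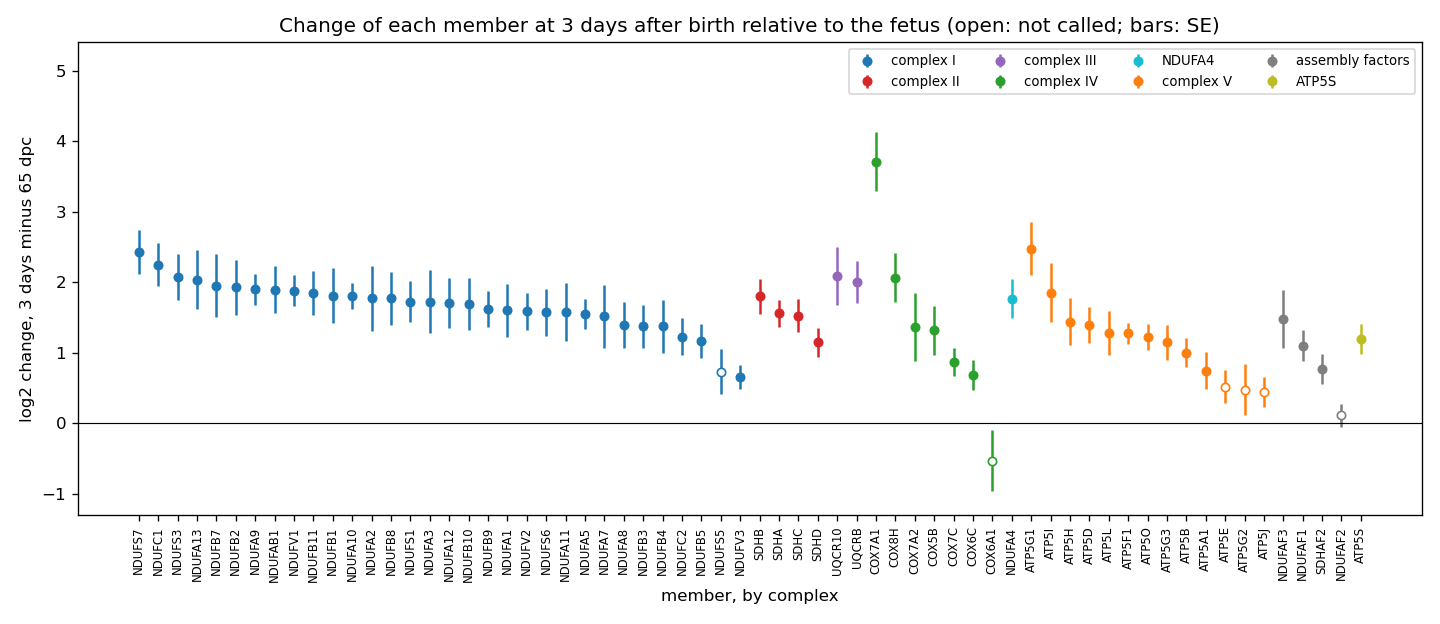
Points are the log2 change of each member at 3 days relative to 65 dpc and bars its standard error, grouped and coloured by complex, with open points for members not called. COX7A1 is the highest at 3.71, and COX6A1 is the only member below 0, at -0.53.

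Complex I is the largest of the complexes, and its members moved in one direction. At 3 days 31 of 32 were higher, with a median change of 1.72 and a range of 0.65 to 2.43, and 30 of the 31 rose by at least 2-fold. NDUFS7, a core subunit that holds an iron-sulfur cluster near the coenzyme Q site, had the largest change. Its intensities were 425, 295 and 481 in the fetus, 2059, 2638 and 1970 at 3 days, 869, 1335 and 2114 at 60 days, and 1506, 1425 and 2164 at 120 days. Every array after birth exceeded every fetal array, and the change at 3 days was 2.43 ± 0.31 (SE; limma adjusted p = 0.00012).

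NDUFC1, an accessory subunit of the membrane arm, followed with a rise of 2.25 ± 0.31 (limma adjusted p = 0.000187). It measured 527, 288 and 315 in the fetus, 2459, 2048 and 1162 at 3 days, 1015, 1176 and 1541 at 60 days, and 1511, 1597 and 2056 at 120 days. Its 3-day arrays spanned a wider range than its 120-day arrays and overlapped them. NDUFAB1, the mitochondrial acyl carrier protein, which also serves fatty acid synthesis, measured 1362, 642 and 820.2 in the fetus, 4095, 3764 and 2518 at 3 days, 1305, 1868 and 2630 at 60 days, and 1820, 1741 and 2897 at 120 days. It rose by 1.89 ± 0.33 at 3 days (limma adjusted p = 0.000897), and its 60-day replicate 1 fell within the fetal range.

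NDUFS1 and NDUFV1 belong to the NADH-oxidising arm, where NDUFV1 binds NADH and its flavin and NDUFS1 carries iron-sulfur clusters. NDUFS1 measured 557, 692 and 514 in the fetus, 2173, 2368 and 1494 at 3 days, 2485, 1368 and 1813 at 60 days, and 1288, 1238 and 2313 at 120 days. NDUFV1 measured 304, 258 and 251 in the fetus, 993, 1236 and 943 at 3 days, 603, 490 and 784 at 60 days, and 484, 467 and 675 at 120 days. NDUFS1 rose by 1.72 ± 0.29 and NDUFV1 by 1.88 ± 0.23 at 3 days (limma adjusted p = 0.000732 and 8.23e-05). For NDUFV1 the 3-day arrays lay above all 60-day and 120-day arrays, whereas those of NDUFS1 overlapped them.

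At the lower end of complex I were NDUFV3, a small accessory subunit of the same arm, and NDUFS5, an accessory subunit of the membrane arm. The stage means of NDUFV3 from 65 dpc to 120 days were 46.0 ± 12.4, 83.6 ± 15.3, 64.4 ± 16.0 and 66.0 ± 3.28 (SD, n = 3), and the gene rose by 0.65 ± 0.17 at 3 days. NDUFS5 measured 1650, 1051 and 1505 in the fetus, 2413, 2627 and 1919 at 3 days, 936, 2428 and 2287 at 60 days, and 1994, 1928 and 2556 at 120 days. Its 3-day arrays all exceeded its fetal arrays, but the change of 0.73 ± 0.32 was not called (limma adjusted p = 0.0863). The 25 other complex I members changed by 1.17 to 2.07 at 3 days, and all 25 were called higher.

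Complex II, succinate dehydrogenase, is also an enzyme of the citric acid cycle, and all its 4 subunits were measured and rose. SDHA, the flavoprotein that oxidises succinate, measured 522, 566 and 575 in the fetus, 1680, 1892 and 1464 at 3 days, 1508, 1452 and 1480 at 60 days, and 1069, 979 and 1508 at 120 days. SDHB, the iron-sulfur subunit, measured 934, 567 and 909 in the fetus, 3050, 3090 and 2271 at 3 days, 2150, 2485 and 3289 at 60 days, and 2372, 2315 and 3441 at 120 days. Neither showed an overlap between the fetal arrays and any array after birth.

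SDHA rose by 1.56 ± 0.19 and SDHB by 1.80 ± 0.25 at 3 days (limma adjusted p = 0.000104 and 0.000221). SDHC and SDHD, which anchor the enzyme in the membrane and bind coenzyme Q, rose by 1.53 ± 0.23 and 1.15 ± 0.21. SDHC measured 377, 257 and 310 in the fetus, 972, 1228 and 685 at 3 days, 902, 1025 and 1038 at 60 days, and 1051, 1094 and 1318 at 120 days. SDHD measured 944, 901 and 984 in the fetus, 2291, 2248 and 1826 at 3 days, 2203, 1666 and 2234 at 60 days, and 1536, 1611 and 2376 at 120 days. The complex II median changed by -0.08 at 60 days relative to 3 days, against -0.56 for complex I, and without replicate 1 at 60 days the medians were -0.04 and -0.20. A second probe set of SDHB, with means of 249 ± 71.0 at 3 days and 321 ± 178 in the fetus (SD, n = 3 each), was not called (-0.25 ± 0.37; limma adjusted p = 0.613).

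Both complex III members rose by about the same amount. UQCR10 and UQCRB are small subunits without a redox centre, and the probe set of UQCRB may match several transcripts by its name. UQCR10 measured 938, 324 and 801 in the fetus, 2840, 2919 and 2461 at 3 days, 950, 2453 and 2640 at 60 days, and 2217, 2216 and 3154 at 120 days. UQCRB measured 1093, 503 and 849 in the fetus, 3520, 3211 and 2853 at 3 days, 1854, 3355 and 3515 at 60 days, and 2866, 2717 and 3677 at 120 days. In both, replicate 1 at 60 days was the lowest array after birth. The changes at 3 days were 2.09 ± 0.41 and 2.01 ± 0.30 (limma adjusted p = 0.00191 and 0.000305).

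Complex IV, cytochrome c oxidase, held the widest spread, from -0.53 to 3.71 at 3 days, with 6 of 7 members higher and a median of 1.32. COX7A1, the heart and muscle form of subunit 7A, had the largest change of all 64 members. It measured 197, 68.9 and 310.4 in the fetus, 2388, 2533 and 2346 at 3 days, 1330, 3253 and 3080 at 60 days, and 2769, 2966 and 3354 at 120 days. The lowest array after birth stood far above the highest fetal array. COX7A1 was higher by 3.71 ± 0.42 at 3 days and by 4.03 ± 0.42 at 120 days than in the fetus (limma adjusted p = 6.02e-05 and 2.37e-05).

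COX8H, the heart and muscle form of subunit 8, had the next largest change in complex IV. It measured 1042, 430.4 and 818 in the fetus, 3102, 3443 and 2700 at 3 days, 1549, 3011 and 4220 at 60 days, and 4360, 3782 and 4296 at 120 days. All 3 arrays at 120 days lay above all 3 arrays at 3 days, as for 16% of all probe sets. That change of 0.43 ± 0.35 was not called (limma adjusted p = 0.578). The change was 2.06 ± 0.35 at 3 days and 2.49 ± 0.35 at 120 days relative to the fetus (limma adjusted p = 0.000746 and 0.000158).

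COX7A2 and COX6A1 encode the forms of subunits 7A and 6A found in most tissues. COX7A2 measured 1077, 405.5 and 769 in the fetus, 2150, 1867 and 1517 at 3 days, 206, 1024 and 688 at 60 days, and 521, 550.4 and 742 at 120 days. Its 3-day arrays stood above those of every other stage, and its 60-day and 120-day arrays lay within the fetal range, except replicate 1 at 60 days, which lay below it. COX7A2 rose by 1.36 ± 0.48 at 3 days (limma adjusted p = 0.0378), a call lost without fetal replicate 2 (0.99, adjusted p = 0.151), without fetal replicate 3, without any 3-day array or without replicate 2 at 120 days (adjusted p = 0.0504 to 0.107). Quantile normalization, hybridization control centring and the replicate block also removed this call. Its change was -1.74 ± 0.48 at 60 days and -1.58 ± 0.48 at 120 days relative to 3 days, neither of them called (limma adjusted p = 0.0992 and 0.0886) in the fit to all arrays. The change at 60 days was called without replicate 2 at 60 days (-2.2, adjusted p = 0.0493) and with array weights (adjusted p = 0.0184), and that at 120 days without replicate 1 at 60 days (adjusted p = 0.0186). Hybridization control centring, array weights and the 6 compared arrays alone also gave a call at 120 days. So did leaving out fetal replicate 2 and replicate 1 at 60 days together, a choice made after the values had been seen.

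COX6A1 was the member that ran against the others. It measured 1116, 445 and 1315 in the fetus, 622, 566 and 599 at 3 days, 183, 608 and 557 at 60 days, and 522, 390.3 and 451 at 120 days. Fetal replicates 1 and 3 exceeded every later array, and fetal replicate 2 lay among the later ones. The change was -0.53 ± 0.44 at 3 days and -0.92 ± 0.44 at 120 days relative to the fetus, not called in either case (limma adjusted p = 0.345 and 0.102). COX6A1 was called lower at 120 days than in the fetus without fetal replicate 2 (-1.38, adjusted p = 0.018) and without replicate 1 at 60 days (-0.92, adjusted p = 0.0363). Without both of these arrays, left out together after the values had been seen, it was called lower at 3 days (-1.0, adjusted p = 0.00215) and at 120 days (-1.38, adjusted p = 0.000291).

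COX5B, COX6C and COX7C have no muscle form. COX5B, which binds zinc, measured 2293, 1083 and 1966 in the fetus, 3940, 4693 and 4203 at 3 days, 1733, 4574 and 4168 at 60 days, and 3537, 3562 and 4679 at 120 days. Apart from replicate 1 at 60 days its arrays after birth lay above the fetal ones, and it rose by 1.32 ± 0.35 at 3 days (limma adjusted p = 0.00952). COX7C and COX6C had smaller rises of 0.86 ± 0.20 and 0.68 ± 0.21, with 3-day means of 4122 ± 440 and 3543 ± 360 against fetal means of 2256 ± 234 and 2206 ± 252 (SD, n = 3 each). The COX6C call was lost without fetal replicate 2 and without replicate 1 or 2 at 3 days. Quantile normalization, hybridization control centring and a 2-fold limit also removed it. NDUFA4 averaged 4838 ± 637 at 3 days and 1433 ± 394 in the fetus and rose by 1.77 ± 0.27.

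**Figure D3:**
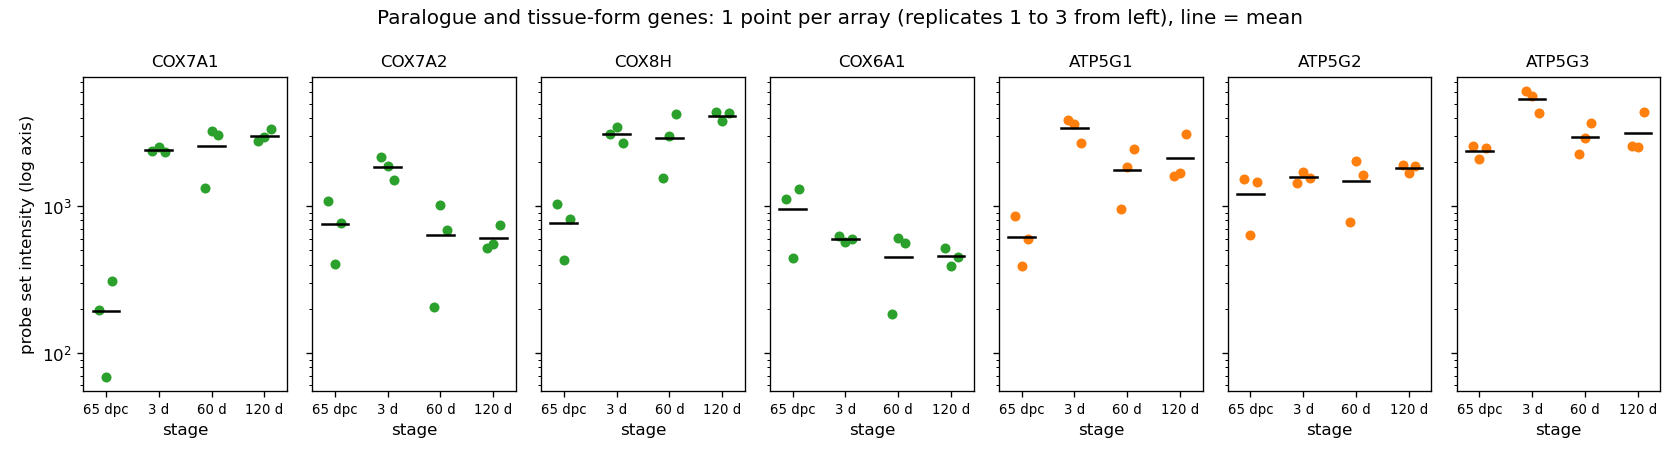
Each point is 1 array, with replicates 1 to 3 from left to right in each stage and lines at the stage means, and intensities are on a log axis. COX7A1 and COX8H stay high after birth, COX7A2 is highest at 3 days, COX6A1 has its highest arrays in the fetus, and the ATP5G genes differ in their course.

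The difference between the log2 levels of COX7A1 and COX7A2 was set to 0 at its fetal mean. It then averaged 2.35 ± 0.24 at 3 days, 4.06 ± 0.46 at 60 days and 4.24 ± 0.13 at 120 days, around a fetal spread of 0.60 (SD, n = 3). All arrays at each later stage lay above the fetal arrays, and the exact two-sided permutation test gave p = 0.1, the smallest that 3 against 3 arrays allow. A difference within an array shows unequal change of the genes and not which of them changed. On replicate 1 at 60 days both genes were low, and the 60-day differences ranged from 3.59 to 4.52.

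In complex V, the ATP synthase, 10 of 13 members were higher at 3 days, with a median of 1.22 and a range of 0.44 to 2.48. ATP5G1, ATP5G2 and ATP5G3 are genes for one and the same mature c subunit of the rotor ring. ATP5G1 measured 864, 388 and 599.9 in the fetus, 3850, 3645 and 2702 at 3 days, 963, 1858 and 2461 at 60 days, and 1616, 1673 and 3109 at 120 days. ATP5G2 measured 1523, 636 and 1453 in the fetus, 1439, 1714 and 1558 at 3 days, 779, 2020 and 1643 at 60 days, and 1897, 1673 and 1886 at 120 days. ATP5G3 measured 2592, 2093 and 2475 in the fetus, 6055, 5682 and 4293 at 3 days, 2258, 2922 and 3709 at 60 days, and 2556, 2532 and 4401 at 120 days. The 3-day arrays of ATP5G1 and ATP5G3 lay above all fetal arrays, whereas those of ATP5G2 overlapped the fetal range.

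ATP5G1 rose by 2.48 ± 0.38 and ATP5G3 by 1.15 ± 0.25 at 3 days (limma adjusted p = 0.000374 and 0.0031), and ATP5G2 was not called, at 0.47 ± 0.36 (adjusted p = 0.309). With its fetal mean at 0, the difference of ATP5G1 and ATP5G2 averaged 2.0 ± 0.31 at 3 days, 1.16 ± 0.35 at 60 days and 1.07 ± 0.49 at 120 days, around a fetal spread of 0.30 (SD, n = 3). That of ATP5G1 and ATP5G3 averaged 1.33 ± 0.013, 1.16 ± 0.35 and 1.4 ± 0.079 at the same stages, around a fetal spread of 0.40. For both pairs every array after birth lay above the fetal arrays (exact two-sided permutation test, p = 0.1 at each stage, the smallest possible). The mature c subunit is the same from each gene, so these values describe its transcripts and not the make-up of the ring.

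The catalytic head of the synthase consists of ATP5A1 (alpha) and ATP5B (beta) with smaller subunits. ATP5A1 measured 2888, 4580 and 2616 in the fetus, 6140, 5921 and 4502 at 3 days, 5606, 3238 and 4782 at 60 days, and 3485, 3370 and 5038 at 120 days. ATP5B measured 2472, 3165 and 2189 in the fetus, 5662, 5717 and 4287 at 3 days, 4508, 3272 and 4383 at 60 days, and 3280, 3295 and 4464 at 120 days. For both, fetal replicate 2 was the highest fetal array, and for ATP5A1 it exceeded the lowest 3-day array. ATP5A1 rose by 0.74 ± 0.26 and ATP5B by 1.0 ± 0.20 at 3 days (limma adjusted p = 0.0363 and 0.0022). ATP5B kept this call under every alternative. That of ATP5A1 was lost without fetal replicate 1 or 3 and without replicate 1 or 2 at 3 days. It was also lost with quantile normalization, hybridization control centring, the replicate block or a 2-fold limit. Neither gene was called at 120 days relative to the fetus (0.26 ± 0.26 and 0.49 ± 0.20, adjusted p = 0.436 and 0.0609).

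Of the smaller subunits, ATP5I, part of the membrane sector, rose most after ATP5G1. It measured 667, 252 and 488 in the fetus, 1578, 1859 and 1461 at 3 days, 396, 1174 and 1245 at 60 days, and 889, 956 and 1313 at 120 days. Replicate 1 at 60 days lay within the fetal range, and the change at 3 days was 1.85 ± 0.42 (limma adjusted p = 0.00418). ATP5D, ATP5F1, ATP5H, ATP5L and ATP5O were also higher, by 1.22 to 1.44.

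ATP5E, the epsilon subunit of the central stalk, and ATP5J, a coupling factor of the outer stalk, were not called at 3 days. ATP5E measured 3030, 2472 and 3523 in the fetus, 3983, 4352 and 4505 at 3 days, 2415, 4622 and 4630 at 60 days, and 4233, 4280 and 4257 at 120 days. ATP5J measured 854, 968 and 601 in the fetus, 1067, 1036 and 1144 at 3 days, 1461, 1027 and 1064 at 60 days, and 1131, 1249 and 1284 at 120 days. In both, the 3-day arrays lay just above the fetal ones, with changes of 0.52 ± 0.23 and 0.44 ± 0.21 (limma adjusted p = 0.086 and 0.114). ATP5J was the 1 member called higher at 120 days relative to the fetus but not at 3 days (0.61 ± 0.21, adjusted p = 0.0319).

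Among the assembly factors NDUFAF1, NDUFAF3 and SDHAF2 were higher at 3 days, by 1.10 ± 0.22, 1.47 ± 0.41 and 0.77 ± 0.21. NDUFAF2 measured 95.4, 78.5 and 122 in the fetus, 111, 130.4 and 83.1 at 3 days, 87.0, 89.1 and 90.3 at 60 days, and 107, 112 and 112 at 120 days. Its stages overlapped, and the change of 0.11 ± 0.17 at 3 days was not called (limma adjusted p = 0.624). ATP5S averaged 349 ± 60.7 at 3 days and 141 ± 18.9 in the fetus (SD, n = 3 each) and rose by 1.19 ± 0.21.

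After 3 days no member was called higher than at the stage before it. The mean was lowest in the fetus for 61 of 64 members and highest at 3 days for 52, at 120 days for 9, at 60 days for 2 and in the fetus for 1, which was COX6A1. Over the 4 stages 55 of 64 members differed (limma F test, adjusted p under 0.05), against 46.9% of all probe sets. The comparisons below share arrays with the first one and with each other, so their values are set side by side and not counted as separate evidence.

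**Figure D4:**
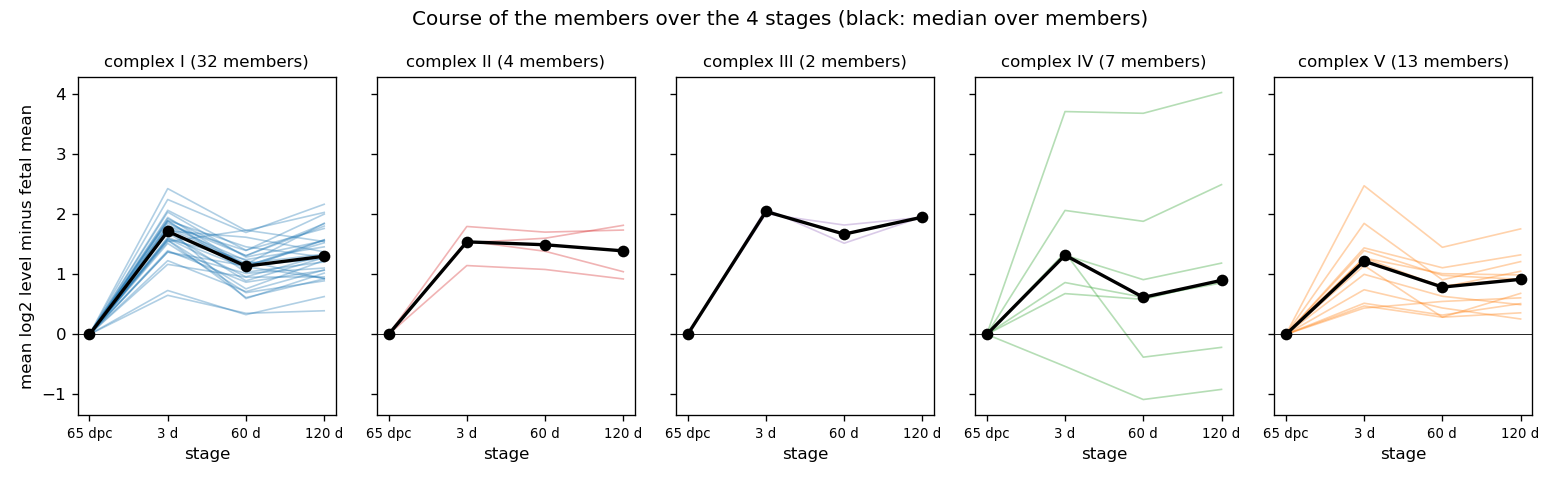
Thin lines are members and black lines medians, as the mean log2 level of each stage minus the fetal mean, with stages from 65 dpc to 120 days on the horizontal axis and 1 panel per complex. The complex I median is 1.72 at 3 days, while complex IV spreads from COX7A1 above 3 to COX6A1 below 0.

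At 60 days 0 of 64 members were called higher or lower than at 3 days, where 0.786% of all probe sets were called higher and 0.742% lower (limma). The median change was -0.43, against -0.0002 over all probe sets, and 4 members lay above 0. The medians were -0.56 for complex I, -0.08 for complex II, -0.38 for complex III, -0.25 for complex IV and -0.37 for complex V. All 3 arrays at 60 days lay below all 3 at 3 days for 15 members, against 10% of all probe sets. Without replicate 1 at 60 days the median was -0.17 and 17 members lay above 0, and the complex medians were -0.20, -0.04, 0.003, 0.03 and -0.23 in the same order.

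At 120 days 0 of 64 members were called higher or lower than at 60 days, as were 0% of all probe sets, and 0 members had an unadjusted p under 0.05 (limma), against 1021 of 16166 probe sets. The median change was 0.21 with 51 members above 0. This direction turned without replicate 1 at 60 days, when the median was -0.098 and 14 members lay above 0.

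Relative to 3 days, 2 members were lower at 120 days and 0 were higher (limma). This is near the shares of all probe sets, of which 2.12% were called lower and 2.29% higher. The 2 members were NDUFV1, described above, and NDUFA10, an accessory subunit of the membrane arm. NDUFA10 measured 443, 469 and 562 at 120 days, against 838, 1047 and 867 at 3 days, with 535, 652 and 643 at 60 days and 274, 245 and 225 in the fetus. Its 120-day arrays lay below all 3-day arrays and above all fetal arrays. NDUFA10 fell by 0.87 ± 0.19 and NDUFV1 by 0.95 ± 0.23 on the log2 scale (SE; adjusted p = 0.022 and 0.036), and each remained above its fetal level, by 0.93 in both.

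Both calls were lost without replicate 1 or 2 at 3 days or replicate 1 or 2 at 120 days (limma adjusted p = 0.053 to 0.161), and that of NDUFV1 also without replicate 3 at 3 days (adjusted p = 0.0577). With arrays weighted by their spread 24 members were called lower, but so were 2355 of all 16166 probe sets, against 343 without weights. The median over the members was -0.25 at 120 days relative to 3 days, and 10 lay above 0. It was -0.16 without replicate 1 at 120 days, with 14 above 0, and -0.37 without replicate 3. Arrays at 120 days lay below those at 3 days without overlap for 17 members, against 15.7% of all probe sets, and above them for 3, against 16%.

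At 120 days 49 of 64 members were higher than in the fetus and 0 lower, where 23.4% of all probe sets were called higher and 25% lower (limma). The median change was 1.18, and 38 of the 49 rose by at least 2-fold. After centring on the hybridization controls the median was 0.72, against -0.45 over all probe sets. By complex, 27 of 32 members of complex I, all 4 of complex II, both of complex III, 5 of 7 of complex IV and 8 of 13 of complex V were higher, with medians of 1.30, 1.39, 1.95, 0.90 and 0.92. Of the members called higher at 3 days, 48 were also called at 120 days and 10 were not, namely NDUFA2, NDUFA7, NDUFA11, NDUFV3, COX7A2, ATP5A1, ATP5B, ATP5G3, NDUFAF3 and SDHAF2. These comparisons use the same fetal arrays.

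Further probe sets existed for 15 of the members, 18 in all, of which 15 passed the filter. At 3 days 13 of these 15 were called higher and 0 lower, against 20.3% and 22.6% of all probe sets tested. The 2 not called were the second probe set of SDHB and a dim one of ATP5I (-0.06 ± 0.14). A second probe set of NDUFA1, an accessory subunit, differed in course from the brighter one after 3 days. From 65 dpc to 120 days its stage means were 76.7 ± 15.5, 305 ± 68.5, 88.0 ± 39.3 and 46.3 ± 2.66 (SD, n = 3), whereas the brighter probe set averaged 862 ± 326, 2530 ± 292, 1763 ± 817 and 2099 ± 452. The dimmer one fell by 2.25 ± 0.24 at 120 days relative to 3 days (limma adjusted p = 0.000756). Its name marks a probe set that may match several transcripts, so it cannot be assigned to NDUFA1 alone. The same holds for the probe sets used for UQCRB and NDUFAF2. A further probe set of NDUFS3 also differed, with stage means of 301 ± 150, 745 ± 270, 1118 ± 524 and 1177 ± 200 (SD, n = 3). The NDUFS3 probe set used averaged 289 ± 103, 1270 ± 375, 798 ± 275 and 1007 ± 216, and another averaged 119, 448, 278 and 350. At 120 days relative to 3 days the differing one changed by 0.70 ± 0.42, not called (limma adjusted p = 0.401).

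Genes that work beside the complexes mostly rose as well. A list of 11 such genes held CYCS, ETFA, ETFB, ETFDH, SLC25A3, SLC25A4, SLC25A5, SLC25A6, VDAC1, VDAC2 and VDAC3. Of these, 9 were higher at 3 days, 0 lower and 2 not called, namely SLC25A5 and SLC25A6. Of all probe sets tested 20.3% were called higher and 22.6% lower at this step. CYCS, cytochrome c itself, measured 3275, 3324 and 2903 at 3 days, against 974, 881 and 801 in the fetus, and rose by 1.82 ± 0.16 (limma adjusted p = 1.28e-05). Among the ADP/ATP carriers, which exchange the product of complex V for its substrate, SLC25A4, the heart and muscle form, rose by 1.64 ± 0.15, SLC25A5 was not called at 0.20 ± 0.32 (adjusted p = 0.648), and SLC25A6 was not called at 3 days (-0.81 ± 0.34, adjusted p = 0.0739) and fell by 1.67 ± 0.34 at 120 days relative to the fetus (adjusted p = 0.00189).

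Of 8 tested assembly factors of complex I 7 were higher at 3 days, and of 8 for complexes II to V also 7, with the 4 factors described above among these lists. The share called higher among all probe sets tested was 20.3%. ECSIT, an assembly factor of complex I, rose by 2.37 ± 0.22 (limma adjusted p = 1.44e-05). BCS1L, which inserts the Rieske protein into complex III, rose by 1.12 ± 0.14 and fell by 0.98 ± 0.14 at 60 days relative to 3 days (adjusted p = 0.00011 and 0.00609). Of 4 tested genes of coenzyme Q synthesis 3 were higher at 3 days, COQ5 by 2.14 ± 0.24, COQ9 by 1.86 ± 0.21 and PDSS1 by 1.5 ± 0.20, and COQ6 was not called at 0.31 ± 0.27. PDSS1, a subunit of the enzyme that makes the tail of coenzyme Q, fell by 0.97 ± 0.20 at 60 days relative to 3 days (adjusted p = 0.0399).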

How the data were processed

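Total RNA of longissimus dorsi was labelled and hybridised to Affymetrix porcine arrays, per the labels' protocols. The deposited values are linear probe set intensities, made by the authors with GCOS 1.4, per the submitters' processing notes, and which background, summary and scaling methods were used is not given in the sources used here. The table has 24123 probe sets, 124 of them controls. Symbols came from the platform annotation, and all 64 members were found in the RefSeq gene table through their Entrez identifiers with 0 symbols changed. A probe set listed with several symbols was left out.

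Intensities were transformed as log2(value + 21), 21 being the 25th percentile of all values, without further normalization. Tested were the 16166 probe sets (67.4%) that exceeded the 40th percentile of an array on 3 arrays or more, and all 64 members passed. limma 3.58.1 in R 4.3.3 was fitted to all 12 arrays with a trended prior, with Benjamini-Hochberg adjustment over all 16166 and a threshold of 0.05. The alternatives covered the pseudocount, filter, normalization, variance model, array weights, replicate block, probe set choice and arrays left out. Replicate numbers were not treated as pairs in the main fit. The deviations from the stage mean correlated at -0.424 to 0.297 between same-numbered arrays of different stages, against -0.408 to 0.646 between differently numbered ones. Such values cannot exclude a weak pairing. The fit was also run on simulated data, in which the noise of each probe set on each array was drawn separately. That run did not cover members that deviate together on an array.

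The members, the gene lists and the rule for genes with full values were chosen with earlier results of these data known. Full values were given for the members of each complex with the largest called changes at a step, paralogues, core subunits and members not called where most were. NDUFA10, NDUFV3 and the second probe sets were picked after their values were seen.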

Additional observations from a re-analysis of the deposited data

How the results depend on the processing

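Of the 58 members higher at 3 days than in the fetus, 49 kept the call under every alternative run and 52 without each array in turn, and counts ran from 53 to 60 without 1 array. For 120 days relative to the fetus, 27 of 49 kept it under every alternative and 37 without each array, with counts from 41 to 55, and for 120 days relative to 3 days 0 of 2. The number differing over the 4 stages was 42 to 59 without 1 array. This F test was not run on the 6 compared arrays alone or with a 2-fold limit. Members called lower at 3 days than in the fetus, 0 in the report, were 1 with array weights and 1 without both low arrays, an alternative chosen after seeing the data. That member was COX6A1 each time. Members called lower at 60 days than at 3 days, also 0, were 5 with array weights, 1 with the mean of a gene's probe sets, and 0 to 2 without 1 array. Members called lower at 120 days than at 3 days, 2 in the report, were 4 after centring on the hybridization controls, 24 with array weights (2355 of all probe sets), 3 with the mean of a gene's probe sets, 7 from the 6 compared arrays alone, 1 with the replicate block, 0 when a 2-fold change was also required, 5 without both low arrays, and 0 to 3 without 1 array. Members called lower at 120 days than in the fetus, 0 in the report, were 1 after centring on the hybridization controls, 1 with array weights, 1 without both low arrays and 0 to 1 without 1 array. The cause of these shifts was not tested.

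With the replicate number as a block 56 members were higher at 3 days and 48 at 120 days than in the fetus. Only 3 of 12 arrays correlated best with an array of their own number. Centring on the hybridization controls moved the median of all probe sets at 3 days to -0.30, with 1189 called higher and 5409 lower against 3286 and 3659, while 53 members were higher and their median was 1.25. At 120 days relative to the fetus 34 members were then higher, with a median of 0.72, and all probe sets had a median of -0.45, with 1136 called higher and 7357 lower against 3778 and 4048.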

Other observations

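At 3 days relative to the fetus 20.3% of all probe sets tested were called higher and 22.6% lower, and the small lists below are to be read against these shares. Of 20 listed nuclear regulators of mitochondrial genes 8 were tested. NRF1, GABPA, ESRRA, ESRRG and PPARGC1B were among those without a probe set of that symbol alone. Of the 8 tested, 1 was higher and 3 were lower, which is near those shares. HIF1A, the oxygen-regulated factor, measured 464, 341 and 302 at 3 days, against 784, 1175 and 618 in the fetus, and fell by 1.15 ± 0.29 (limma adjusted p = 0.00834). YY1 and MEF2A fell by 0.62 ± 0.18 and 0.57 ± 0.21 (adjusted p = 0.0175 and 0.0422), and CREB1 rose by 0.53 ± 0.13 (adjusted p = 0.00636). PPARGC1A, a coactivator of mitochondrial gene expression, was not called at 0.37 ± 0.61 (adjusted p = 0.647), and its arrays at 60 days spread over 294, 267 and 1257. Of 16 listed genes for the upkeep and transcription of mitochondrial DNA 6 were tested. At 3 days 2 were higher, also near the share of all probe sets, TEFM by 1.24 ± 0.15 and MTERF3 by 1.21 ± 0.22. TFAM was not called at 0.15 ± 0.21 (adjusted p = 0.598).

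UCP3, a muscle uncoupling protein, had its highest mean at 60 days. It measured 16.95, 15.46 and 16.66 in the fetus, 75.5, 49.5 and 152 at 3 days, 411, 454 and 971 at 60 days, and 97.4, 168 and 317 at 120 days. It rose by 1.5 ± 0.41 at 3 days and by a further 2.48 ± 0.41 at 60 days (limma adjusted p = 0.0119 and 0.0138). Its fetal intensities lay below the 21 added before the log, so the size of the first step is understated. ATPIF1, the inhibitor of complex V, rose by 1.15 ± 0.29 at 3 days (adjusted p = 0.00831).

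Some markers of muscle fibres and of other cells moved at the same step. Of 7 skeletal muscle markers 6 were called higher at 3 days, and of 9 slow fibre markers 3 were higher and 1 lower, near the shares of all probe sets. Of 5 adipocyte markers 4 were higher, and ADIPOQ was not called (0.17 ± 0.53, limma adjusted p = 0.812). The summed adipocyte markers were 1881 to 2244 at 3 days and 557 to 844 in the fetus. Those of fibroblasts and matrix were 3097 to 4826 at 3 days and 8504 to 14230 in the fetus, with 3 of 5 lower, and both markers of dividing cells were lower. Of 6 endothelial markers 2 were lower, of 2 erythroid markers HBB was lower, of 2 Schwann and nerve markers 1 was higher and 1 lower, and 0 of 3 immune and 0 of 2 cartilage markers were called. Their part in the rise of the subunits was not tested.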
